A study of Mus musculus with 13 samples.

Results

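The classical non-homologous end joining factors were followed as 9 genes, Xrcc5, Xrcc6, Prkdc, Dclre1c, Poll, Polm, Xrcc4, Lig4 and Nhej1. They were taken by symbol from the 43629 genes of the deposited table, without a cutoff on their values but with earlier results of these data known. All 9 passed the filter on low values, and they lie on 8 chromosomes. RNA, from single-cell suspensions by the study's methods, was sequenced in 13 libraries, each from a different mouse. The WT group held 3 thymuses of C57BL/6 mice, re-used from another series. The first lymphoma group held 5 thymic lymphomas of Atm-/- mice on 129S6/SvEv, which lack activity of the ATM kinase. The second held 5 thymic lymphomas of Rag2c/c p53-/- mice on a mixed background of C57BL/6 and 129S6/SvEv, which make RAG2 without its C terminus and lack p53. The ages of the mice are not given in the sources used here. Because strain and series go with genotype, their effects and that of the genotype cannot be told apart. No thymus free of lymphoma from the mutant mice was analysed here, so genotype and tumour cannot be told apart either. In such bulk RNA, fewer cells of a type and less RNA per cell cannot be told apart.

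Non-homologous end joining ligates broken DNA ends directly and works throughout the cell cycle. In developing thymocytes it closes the breaks that the RAG recombinase makes at antigen receptor genes, so that loss of a core factor blocks lymphocyte development. The Ku ring of Ku80 (Xrcc5) and Ku70 (Xrcc6) slides onto an end and recruits the kinase DNA-PKcs (Prkdc). Artemis (Dclre1c), a nuclease that DNA-PKcs activates, opens hairpins, and the X family polymerases lambda (Poll) and mu (Polm) fill gaps. XRCC4, DNA ligase IV (Lig4) and XLF (Nhej1) then seal the break. ATM signals from the same breaks and stabilises the ends, and p53 arrests or kills cells in which they persist.

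Values are normalised counts, that is, read counts scaled to the size of each library and given by the authors as whole numbers. The estimated depth was 6.66 to 38.8 M reads in WT, 9.23 to 23.6 M in Atm-/- lymphomas and 6.37 to 24.7 M in Rag2c/c p53-/- lymphomas. At this depth 1 read was worth 0.509 to 3.38 normalised counts. Atm itself was at 1990, 1559 and 2274 in WT and at 732, 208, 445, 568 and 534 in Atm-/- lymphomas, with no overlap. The Rag2c/c p53-/- lymphomas had Atm at 1248, 439, 1315, 552 and 1154, all below WT and overlapping the Atm-/- lymphomas (log2 fold change from WT -1.16, adjusted p = 0.0441 by limma). Of these, 439 and 552 were from the shallowest libraries of that group, at 6.37 and 13.7 M reads. Rag1, which encodes the partner of RAG2 in the recombinase, was at 48182 to 70834 in WT, 2383 to 7116 in Atm-/- lymphomas and 5620 to 23493 in the Rag2c/c p53-/- group (log2 fold change -3.46, adjusted p = 5.17e-05, and -2.24, adjusted p = 0.00147, both by limma). Trp53 ranged from 4387 to 6341 in WT, from 6853 to 11318 in Atm-/- lymphomas and from 2018 to 5461 in Rag2c/c p53-/- lymphomas, and Rag2 from 4199 to 5409, 46 to 1025 and 260 to 790. The counts of Atm, Trp53 and Rag2 cover whole genes, exons that the alleles may leave included. They therefore do not check the Atm, p53 and Rag2 alleles.

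The libraries held thymocyte RNA throughout. The summed level of 6 thymocyte markers, led by Cd8a and Lck, ranged from 77912 to 119617 in WT, from 41442 to 87620 in Atm-/- lymphomas and from 56812 to 96804 in Rag2c/c p53-/- lymphomas, and none of the 6 was at 0 in any library. Of these 6, Cd8a was lower in Atm-/- lymphomas. The 6 markers of dividing cells summed to between 34401 and 39788, 28849 and 62287, and 33348 and 49498 in the same order, and 4 of 6 rose in Atm-/- and 2 of 6 in Rag2c/c p53-/- lymphomas. Fibroblast and endothelial markers summed to between 3709 and 3846 in WT, 7802 and 20727 in Atm-/- and 2944 and 6512 in Rag2c/c p53-/- lymphomas, with 4 of 6 and 3 of 6 higher, and Cdh5 was lower in Rag2c/c p53-/- lymphomas and at 0 in part of the last group. Myeloid markers summed to between 3551 and 3920, 6077 and 10197, and 3586 and 7428 (3 of 6 and 1 of 6 higher, with S100a8 lower in either). Thymic epithelial markers summed to between 725 and 1058, 189 and 609, and 287 and 1320, 4 of 6 being lower in either lymphoma group, with Foxn1 and Psmb11 at 0 in part of the Atm-/- and Psmb11 in part of the Rag2c/c p53-/- libraries. The B cell sums ran from 10193 to 14147, from 2324 to 27368 and from 1381 to 22361, and 4 of 6 and 5 of 6 markers were lower, with Ms4a1 at 0 in part of the Atm-/- and Pax5 in part of the Rag2c/c p53-/- libraries. Ighm, at a mean of 10121 in WT, was the most abundant B cell marker in each group and was not called against WT in either lymphoma group. Of 5 erythroid markers tested, 0 were called by limma or limma-voom and 0 had an unadjusted p under 0.05. Beside these marker counts, 21.0% of all genes tested were higher and 23.6% lower in Atm-/- lymphomas, and 17.5% and 19.7% in Rag2c/c p53-/- lymphomas. The part of these cells in the results below was not tested.

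In Atm-/- lymphomas, 5 of the 9 genes differed from WT at a Benjamini-Hochberg adjusted p under 0.05 in limma, beside 44.6% of the 15872 genes tested. Both Ku genes rose (2 of 9, beside 21.0% of all genes), while Prkdc, Dclre1c and Xrcc4 fell (3 of 9, beside 23.6%). Among Rag2c/c p53-/- lymphomas, 3 of 9 genes differed from WT, beside 37.3% of all genes. There Xrcc6 rose (1 of 9, beside 17.5%), and Prkdc and Polm fell (2 of 9, beside 19.7%). The members' counts lie near those backgrounds, so they do not set the pathway apart from other genes. With a change of at least 2-fold asked for besides, 3 of 9 remained in Atm-/- (Xrcc6, Prkdc and Dclre1c, background 29.5%) and 3 of 9 in Rag2c/c p53-/- lymphomas (background 23.6%). The median log2 fold change of the 9 genes was -0.28 for Atm-/- lymphomas and -0.52 for the Rag2c/c p53-/- group, beside -0.02 for either over all genes tested. The 2 comparisons share the same 3 WT libraries.

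**Figure D1:**
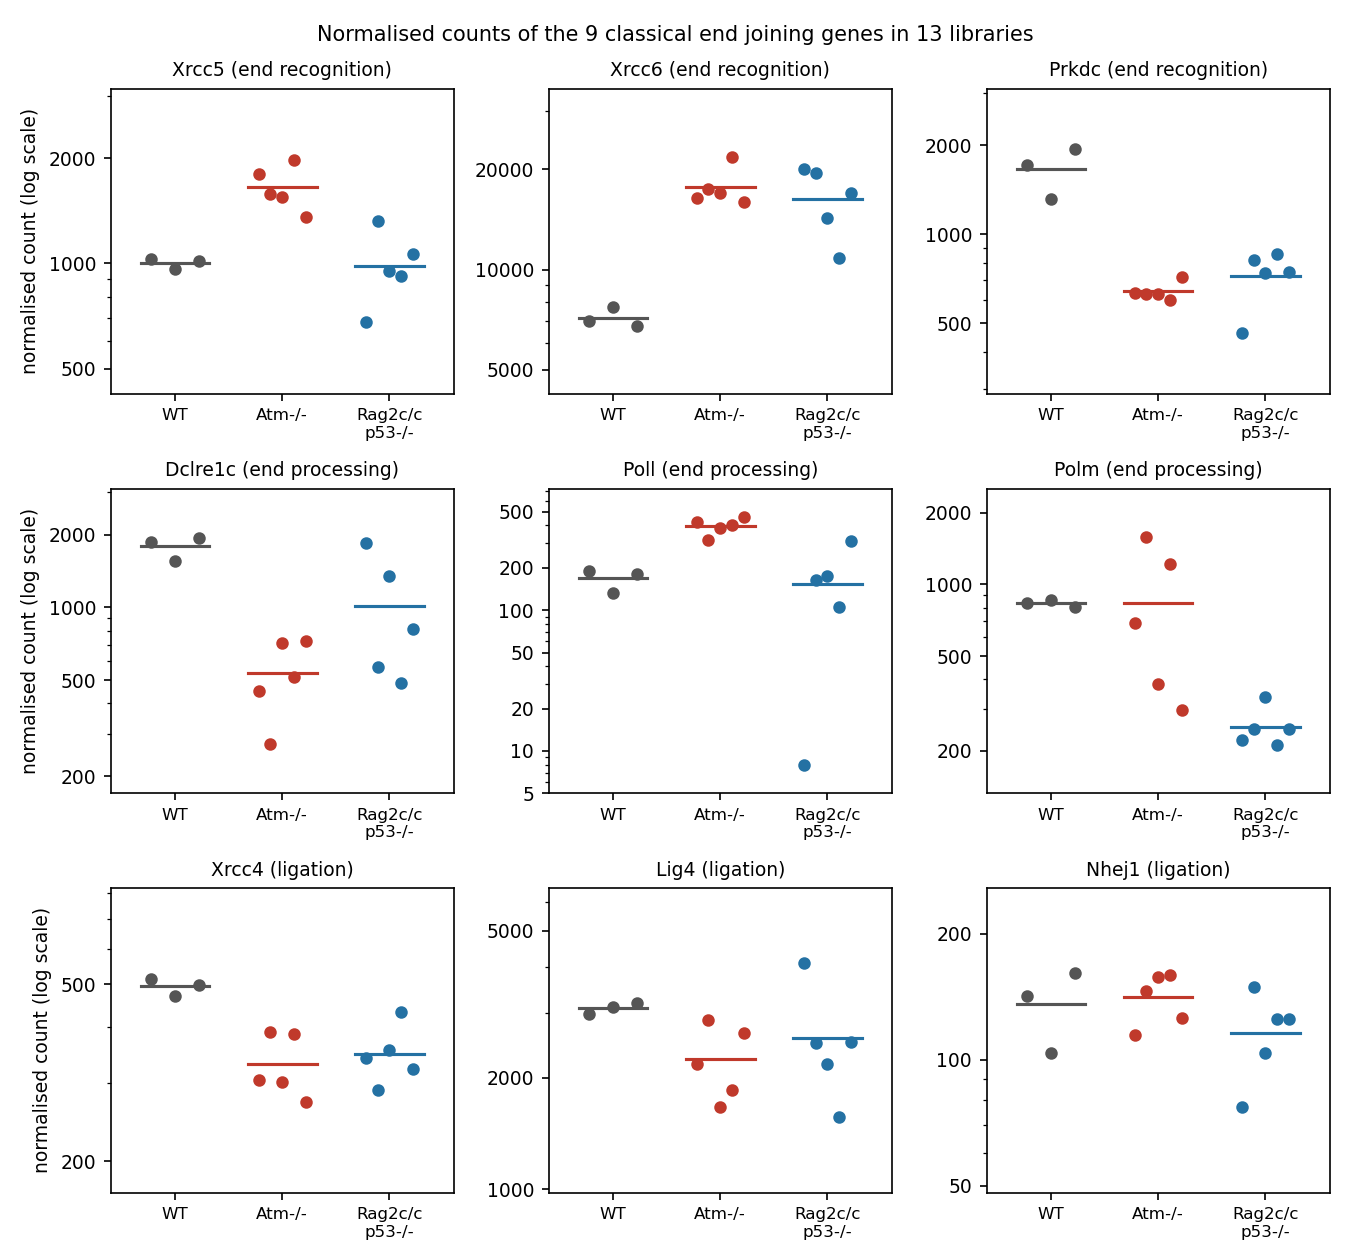
Normalised counts (log axis) of the 9 genes in each of 13 libraries, 1 point per library, with a line at the group mean (3 WT thymuses, 5 Atm-/- and 5 Rag2c/c p53-/- lymphomas, replicates from left to right). Xrcc6 lies above WT and Prkdc below WT in all 10 lymphomas, Polm spreads from 298 to 1583 among Atm-/- lymphomas, and Poll stands at 8 in 1 Rag2c/c p53-/- lymphoma.

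The promoters of 4 members were read from RefSeq on GRCm38.p6, as the 250 bases before the start of transcription, for Xrcc6 and Xrcc5 as partners in the Ku ring and for Dclre1c and Polm as the processing genes that fell. They are Xrcc6 at chr15:82016119-82016368 (plus strand), Xrcc5 at chr1:72307171-72307420 (plus), Dclre1c at chr2:3423881-3424130 (plus) and Polm at chr11:5838017-5838266 (minus), each written 5′ to 3′ on the strand of the gene. Capitals mark matches to the motifs below on either strand, which do not overlap each other in these 4 windows.
Xrcc6: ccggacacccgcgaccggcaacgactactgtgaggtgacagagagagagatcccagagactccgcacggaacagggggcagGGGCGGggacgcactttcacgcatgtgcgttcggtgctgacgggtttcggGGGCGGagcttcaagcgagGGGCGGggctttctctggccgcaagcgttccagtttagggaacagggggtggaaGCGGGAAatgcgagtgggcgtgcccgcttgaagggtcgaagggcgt
Xrcc5: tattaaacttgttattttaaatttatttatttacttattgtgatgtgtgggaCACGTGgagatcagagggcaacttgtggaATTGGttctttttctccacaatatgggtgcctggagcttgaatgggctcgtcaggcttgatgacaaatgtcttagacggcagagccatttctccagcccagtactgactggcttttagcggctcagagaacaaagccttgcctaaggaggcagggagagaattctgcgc
Dclre1c: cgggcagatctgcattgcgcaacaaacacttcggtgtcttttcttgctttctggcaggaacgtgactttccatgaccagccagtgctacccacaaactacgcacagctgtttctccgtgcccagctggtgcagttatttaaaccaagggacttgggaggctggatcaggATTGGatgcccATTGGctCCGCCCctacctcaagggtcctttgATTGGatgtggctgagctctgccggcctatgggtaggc
Polm: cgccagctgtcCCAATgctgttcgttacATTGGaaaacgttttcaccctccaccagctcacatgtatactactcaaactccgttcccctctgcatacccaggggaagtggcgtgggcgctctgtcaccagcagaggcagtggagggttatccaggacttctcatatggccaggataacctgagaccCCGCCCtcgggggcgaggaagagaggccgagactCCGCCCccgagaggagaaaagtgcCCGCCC

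The motifs searched were GGGCGG (Sp1), CCGGAAG (ETS), CCAAT (NF-Y), CACGTG (E-box), GCGGGAA (E2F) and ATGGCGG (YY1). Xrcc6 held 3 Sp1 strings and 1 of E2F, which are in 32.7% and 3.82% of the 32851 promoter windows. Its partner Xrcc5 held neither, but 1 CCAAT (in 33.8% of windows) and 1 E-box (in 6.02%), and had 44.8% GC against 65.2% for Xrcc6. Dclre1c held 3 CCAAT, all as ATTGG within the last part of the window, and 1 Sp1 string, and Polm held 2 CCAAT at the far end and 3 Sp1 strings near the start. ETS letters, in 6.91% of windows, were found only in Lig4 and Xrcc4 among the 7 members with a window, and YY1 letters, in 2.21%, in none. These matches are descriptions of the letters, and their part in the levels of the genes was not tested. Poll and Prkdc had no window in the table used.

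Among the genes of end recognition, Xrcc6 (ENSMUSG00000022471, chromosome 15 from 81987835 to 82040085 of GRCm38, plus strand) was at 6983, 7696 and 6768 in WT. It was at 16359, 17410, 16966, 21818 and 15921 in Atm-/- lymphomas and at 20011, 19528, 14308, 10864 and 16981 in Rag2c/c p53-/- lymphomas. Every lymphoma lay above every WT thymus. The log2 fold change was 1.30 (SE 0.19, 2.46-fold, adjusted p = 0.000164) in Atm-/- lymphomas and 1.16 (SE 0.19, 2.23-fold, adjusted p = 0.00052) in the Rag2c/c p53-/- group. Between the lymphoma groups it was 0.14 (95% interval -0.21 to 0.49, adjusted p = 0.647), and their ranges overlapped.

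Xrcc5 (ENSMUSG00000026187, chromosome 1 from 72307421 to 72394952, plus strand) was at 1029, 962 and 1016 in WT. Its level was 1806, 1580, 1549, 1969 and 1361 in Atm-/- lymphomas, all above WT, with a log2 fold change of 0.71 (SE 0.19, 1.64-fold, adjusted p = 0.00924). In Rag2c/c p53-/- lymphomas it was 679, 1321, 950, 918 and 1065, on both sides of WT, and the log2 fold change was -0.06 (95% interval -0.47 to 0.36, adjusted p = 0.841). All Atm-/- lymphomas were above all Rag2c/c p53-/- lymphomas, by 0.77 on the log2 scale (SE 0.17, adjusted p = 0.0101).

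The levels of the Ku partners were also set against each other. Within a library, Xrcc6 exceeded Xrcc5 by a ratio of 6.79, 8.0 and 6.66 in WT. The ratio was 9.06, 11.02, 10.95, 11.1 and 11.7 in Atm-/- lymphomas and 29.5, 14.8, 15.1, 11.8 and 15.9 in Rag2c/c p53-/- lymphomas. The 3 groups did not overlap, in the order WT, Atm-/- and Rag2c/c p53-/-, and the highest ratio belonged to the Rag2c/c p53-/- lymphoma with the lowest Xrcc5. Like the other ratios between genes below, these are not corrected for exon length, which is 4476 bases for Xrcc6 and 2555 for Xrcc5. The ratios are given as a description and were not tested.

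**Figure D2:**
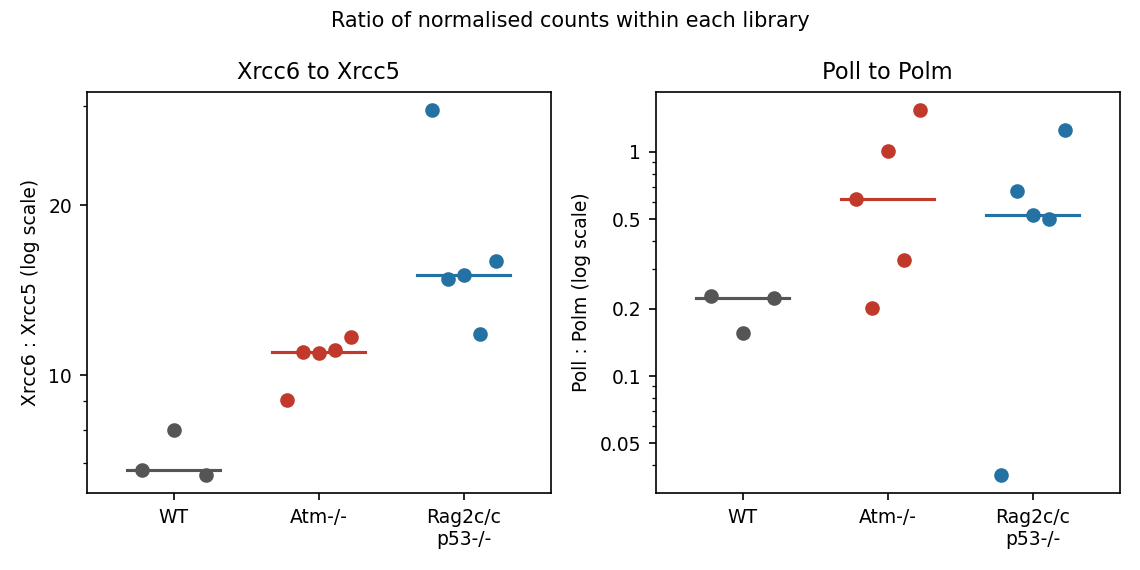
Ratio of normalised counts within each library (log axes), of Xrcc6 to Xrcc5 on the left and of Poll to Polm on the right, with a line at the group median. The Ku ratio rises from at most 8.0 in WT to at least 11.8 in Rag2c/c p53-/- lymphomas without overlap, while the polymerase ratio spreads from 0.0362 to 1.53 over the lymphomas.

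Prkdc (ENSMUSG00000022672, chromosome 16 from 15637866 to 15842235, plus strand) was at 1720, 1319 and 1934 in WT. It was at 632, 628, 630, 602 and 719 in Atm-/- lymphomas and at 463, 817, 741, 858 and 747 in Rag2c/c p53-/- lymphomas. No lymphoma reached the lowest WT thymus. The log2 fold change was -1.35 (SE 0.20, 2.55-fold lower, adjusted p = 0.000182) in Atm-/- lymphomas and -1.21 (SE 0.20, 2.31-fold lower, adjusted p = 0.000579) in the Rag2c/c p53-/- group. The lymphoma groups differed by -0.15 (95% interval -0.52 to 0.23, adjusted p = 0.653). Xrcc6 and Prkdc, whose products form the DNA-PK holoenzyme together with Ku80, therefore changed in opposite directions against WT. Prkdc stood to Xrcc6 as 0.171 to 0.286 in WT, 0.0276 to 0.0452 in Atm-/- lymphomas and 0.0231 to 0.0790 in the Rag2c/c p53-/- group.

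**Figure D3:**
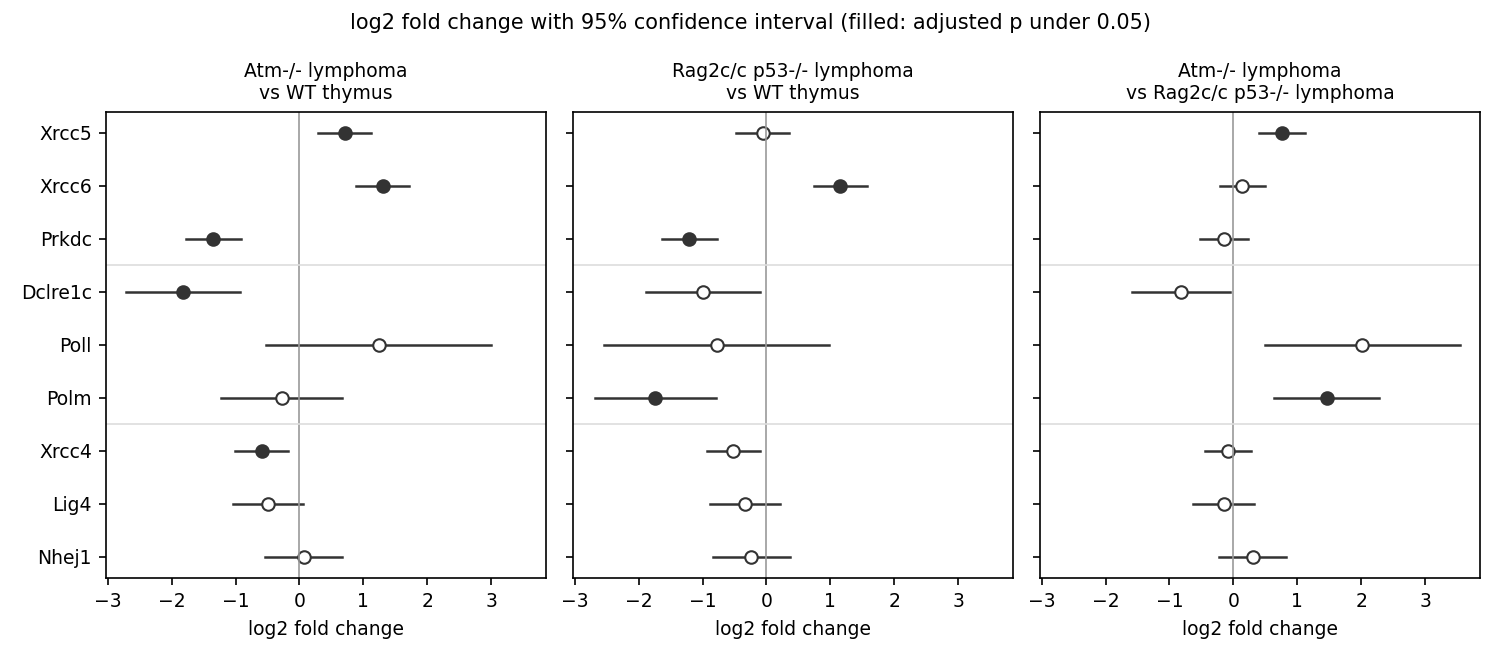
log2 fold change of the 9 genes with its 95% confidence interval from limma in the 3 comparisons, filled where the adjusted p was under 0.05. In Atm-/- lymphomas Xrcc6 stands at 1.30 and Dclre1c at -1.82, Polm stands at -1.74 in Rag2c/c p53-/- lymphomas, and the interval of Poll is the widest in each comparison.

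Of the end processing genes, Dclre1c (ENSMUSG00000026648, chromosome 2 from 3424131 to 3464130, plus strand) was at 1858, 1559 and 1939 in WT. All Atm-/- lymphomas were lower, at 450, 272, 709, 515 and 726, and the log2 fold change was -1.82 (SE 0.41, 3.52-fold lower, adjusted p = 0.0034). The Rag2c/c p53-/- lymphomas spread 3.81-fold, at 1848, 564, 1352, 485 and 815. The first of these stood at the WT level and the other 4 below it. The values 564 and 485 were from the shallowest libraries of that group, at an estimated 6.37 and 13.7 M reads. In Atm-/- lymphomas 272 was from the shallowest library (9.23 M), but 450 was from the deepest (23.6 M). The part of depth was not tested. The log2 fold change was -0.998 (SE 0.41, adjusted p = 0.0732), and without replicate 1 it was -1.26 (adjusted p = 0.0184).

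Polm (ENSMUSG00000020474, chromosome 11 from 5827860 to 5838016, minus strand), which can bridge ends with little pairing, was nearly constant in WT, at 838, 858 and 804. In Rag2c/c p53-/- lymphomas it was at 221, 247, 335, 212 and 247, all below WT, with a log2 fold change of -1.74 (SE 0.44, 3.34-fold lower, adjusted p = 0.00804). The Atm-/- lymphomas did not share 1 level but stood at 687, 1583, 383, 1224 and 298. Replicates 2 and 4 were above WT and the other 3 below it, the log2 fold change from WT was -0.28 (95% interval -1.23 to 0.67, adjusted p = 0.628), and without replicate 5 it was 0.02. The values 1583 and 1224 were from the shallowest libraries of that group, at an estimated 9.23 and 11.2 M reads. The part of depth in the spread of Polm was not tested. Against Rag2c/c p53-/- lymphomas the Atm-/- lymphomas were higher by 1.46 (SE 0.38, adjusted p = 0.0262), although the ranges overlapped. That call was lost when Atm-/- replicate 1 or 4 or Rag2c/c p53-/- replicate 1, 4 or 5 was left out (adjusted p between 0.0502 and 0.0654), and also with limma-voom (0.0579), without the libraries under 10 M reads (0.0800) and with only the lymphoma groups in the fit (0.0613).

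Poll (ENSMUSG00000025218, chromosome 19 from 45552275 to 45560531, minus strand) was at 191, 133 and 180 in WT and higher in each Atm-/- lymphoma, at 424, 317, 385, 402 and 457. The Rag2c/c p53-/- lymphomas had it at 8, 165, 176, 106 and 310. The first of these rests on about 8.47 reads, in a library of an estimated 21.7 M reads. With all libraries in the fit, the log2 fold change was 1.24 (SE 0.82, adjusted p = 0.229) in Atm-/- lymphomas and -0.78 (SE 0.82, adjusted p = 0.478) in the Rag2c/c p53-/- group. Without Rag2c/c p53-/- replicate 1 the first kept its size and had an adjusted p of 0.00577 (0.00119 with only Atm-/- and WT libraries in the fit), and the second became 0.08 (adjusted p = 0.857). The difference between the lymphoma groups was 2.02 (95% interval 0.49 to 3.54, adjusted p = 0.0842), and 1.16 (adjusted p = 0.0236) without that library.

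In the library with 8 counts of Poll, none of its 50 tested neighbours on chromosome 19 had a lower difference from WT than Poll, which stood 4.21 below the WT mean on the log2 scale. The median of these neighbours there was -0.15. Of the genes close by, Dpcd, which starts beyond the 5′ end of Poll, was at 253 in that library and between 422 and 750 in the other 4 of its group. In WT, Dpcd was at 308, 182 and 260, so 253 lay within the WT range. Fbxw4, the next gene, was at 222 there, between 407 and 555 in the other 4 and at 776, 734 and 680 in WT. Btrc on the other side of Poll was at 816 against 896 to 1059, and at 1252, 1160 and 1169 in WT. The ratio of Poll to Polm ranged from 0.155 to 0.228 in WT, from 0.200 to 1.53 in Atm-/- lymphomas and from 0.0362 to 1.26 in the Rag2c/c p53-/- group, a wider spread in either lymphoma group than in WT.

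Of the ligation genes, Lig4 (ENSMUSG00000049717, chromosome 8 from 9970020 to 9977686, minus strand) was at 2983, 3109 and 3187 in WT. It was at 2179, 2875, 1673, 1852 and 2639 in Atm-/- lymphomas, below each WT thymus, but the log2 fold change of -0.49 (SE 0.26, adjusted p = 0.131) did not pass the test. It passed with only Atm-/- and WT libraries in the fit (adjusted p = 0.0497). In Rag2c/c p53-/- lymphomas it was at 4081, 2486, 2181, 1565 and 2502, with replicate 1 above WT and the others below (log2 fold change -0.34, 95% interval -0.89 to 0.21, adjusted p = 0.311).

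Xrcc4 (ENSMUSG00000021615, chromosome 13 from 89774027 to 90089608, minus strand), the scaffold of the ligase, was at 514, 471 and 499 in WT. All 10 lymphomas were lower, at 304, 390, 302, 387 and 272 for Atm-/- and at 341, 290, 356, 432 and 323 for Rag2c/c p53-/-. The log2 fold change was -0.59 (SE 0.19, 1.51-fold lower, adjusted p = 0.024) and -0.52 (SE 0.19, adjusted p = 0.0501). Either stood close to the threshold: the first was lost without any 1 of the WT thymuses or without Atm-/- replicate 5 (adjusted p between 0.0521 and 0.0888) or with no filter on low values (0.0518), and the second passed without Rag2c/c p53-/- replicate 4 (adjusted p = 0.0314) or Atm-/- replicate 2 (adjusted p = 0.0382), and under 5 other settings, with limma-voom at the lowest (adjusted p = 0.0199) and a pseudocount of 10 at the highest (adjusted p = 0.0497).

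Nhej1 (ENSMUSG00000026162, chromosome 1 from 74967139 to 75125200, minus strand) was at 142, 104 and 161 in WT. It was at 115, 146, 158, 160 and 126 in Atm-/- and at 77, 149, 104, 125 and 125 in Rag2c/c p53-/- lymphomas, and both ranges overlapped WT. The log2 fold change was 0.07 (95% interval -0.54 to 0.67, adjusted p = 0.863) and -0.23 (95% interval -0.84 to 0.37, adjusted p = 0.536). WT replicate 2 and Rag2c/c p53-/- replicate 1 were the lowest of their groups.

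In 7 of 9 genes the Atm-/- lymphomas did not overlap WT, beside 51.3% of all genes tested, 3 being higher (beside 23.4%) and 4 lower (beside 27.9%). The same held for 4 of 9 genes in Rag2c/c p53-/- lymphomas, beside 43.9% of all genes, 1 being higher (beside 19.7%) and 3 lower (beside 24.2%). Between the lymphoma groups, 2 of 9 genes passed the test, Xrcc5 and Polm, beside 11.6% of all genes. Both were higher in Atm-/- lymphomas (3 members at an unadjusted p under 0.05), as 5.13% of all genes were, and 0 of 9 were lower (1 at an unadjusted p under 0.05), beside 6.48% of all genes. With a 2-fold change asked for, Polm was left (1 of 9, beside 7.84%). In 2 of 9 genes, Xrcc5 and Poll, the lymphoma groups did not overlap, beside 8.33% of all genes, both with Atm-/- lymphomas higher (beside 3.85%) and none lower (beside 4.48%). For Dclre1c the difference was -0.82 (95% interval -1.59 to -0.05, adjusted p = 0.164). The ligation genes differed by -0.08 (Xrcc4), -0.15 (Lig4) and 0.30 (Nhej1), with intervals from -0.63 at the lowest to 0.82 at the highest.

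Levels between genes were compared per kb of exon. In WT, Xrcc6 led with 1597 ± 109 normalised counts per kb (SD, n = 3), followed by Lig4 at 595 ± 19.79, Xrcc5 at 392.3 ± 13.9, Polm at 228 ± 7.46 and Dclre1c at 192 ± 21.5. Prkdc at 126 ± 23.7, Nhej1 at 121 ± 26.0 and Xrcc4 at 117 ± 5.18 did not differ beyond their spread, and Poll was the lowest at 72.3 ± 13.3. Xrcc6 also led in Atm-/- lymphomas, at 3953 ± 530 (SD, n = 5), and in Rag2c/c p53-/- lymphomas, at 3650 ± 852 (SD, n = 5).

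The order below Xrcc6 changed in the lymphomas. In Atm-/- lymphomas Xrcc5 at 647 ± 92.8 per kb stood above Lig4 at 431 ± 97.9, and Poll at 171 ± 22.5 came next after Polm at 228 ± 151. Nhej1 stood at 126 ± 17.8 and Xrcc4 at 78.6 ± 12.8. Dclre1c at 57.4 ± 20.3 and Prkdc at 48.7 ± 3.38 were the lowest and lay within their spread. In Rag2c/c p53-/- lymphomas Lig4 at 493 ± 179 and Xrcc5 at 386 ± 91.5 overlapped, and the 6 genes below them were Dclre1c at 109 ± 61.9, Nhej1 at 104 ± 24.2, Xrcc4 at 82.7 ± 12.5, Polm at 69.0 ± 13.3, Poll at 65.8 ± 47.4 and Prkdc at 55.0 ± 11.7, each overlapping the next in that order. With the length of the longest transcript in place of all exons, Prkdc, Nhej1 and Xrcc4 changed places in WT, while the order of the other genes stayed in each group.

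The start of Xrcc6 in RefSeq lies 28.5 kb inside the gene as the deposited table draws it. Desi1, on the opposite strand, lies within that longer gene and was higher in lymphomas too, by 0.82 (adjusted p = 0.00285) in Atm-/- lymphomas and 0.72 (adjusted p = 0.00788) in the Rag2c/c p53-/- group. The library kit named in the study's methods keeps strand. The strand setting of the counting is not given in the sources used here, so reads of the 2 genes may not be separate. Xrcc6 stood to Desi1 as 0.872 to 1.07 in WT, 1.17 to 1.51 in Atm-/- lymphomas and 0.806 to 2.07 in the Rag2c/c p53-/- group. The end of Dclre1c overlaps Suv39h2 on the other strand, which rose, by 0.81 (adjusted p = 0.00681) and 1.36 (adjusted p = 0.000344), while Dclre1c was lower. Xrcc4 overlaps Tmem167, for which the log2 fold change was 0.01 (adjusted p = 0.94) and -0.27 (adjusted p = 0.124).

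Each gene was also set beside the 25 tested genes on either side of it. Xrcc6 had the neighbours with the highest median of the 9: the median of its 50 neighbours on chromosome 15 was 0.68 in Atm-/- lymphomas and 0.65 in the Rag2c/c p53-/- group, and that of the 582 tested genes of the chromosome was 0.39 in both. Xrcc6 itself exceeded 42 and 43 of these 50 neighbours. In single lymphomas the median of the neighbours lay between 0.24 and 0.73 above the WT mean, and Xrcc6 between 0.61 and 1.61 above it. In Rag2c/c p53-/- replicate 4, Xrcc6 stood at 0.61 beside 0.58 for its neighbours, and exceeded 26 of the 50. It exceeded 38 to 48 of them in the other lymphomas. The part of the chromosome in the level of Xrcc6 was not tested.

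Around Prkdc the median of the neighbours was -0.05 and -0.08, and only 5 and 3 of 50 were lower than Prkdc. For Dclre1c, near the end of its chromosome with 28 neighbours in all, it was 0.23 and 0.36, and for Polm 0.16 and 0.27. None of the 50 neighbours of Polm was as low as Polm in Rag2c/c p53-/- lymphomas. For Xrcc4 the medians of the neighbours were also below 0, at -0.24 and -0.45, beside -0.59 and -0.52 for Xrcc4 itself. For Xrcc5 the medians were 0.03 and -0.11, for Poll -0.08 and -0.18, for Lig4 -0.05 and -0.01, and for Nhej1 0.18 and 0.02.

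**Figure D4:**
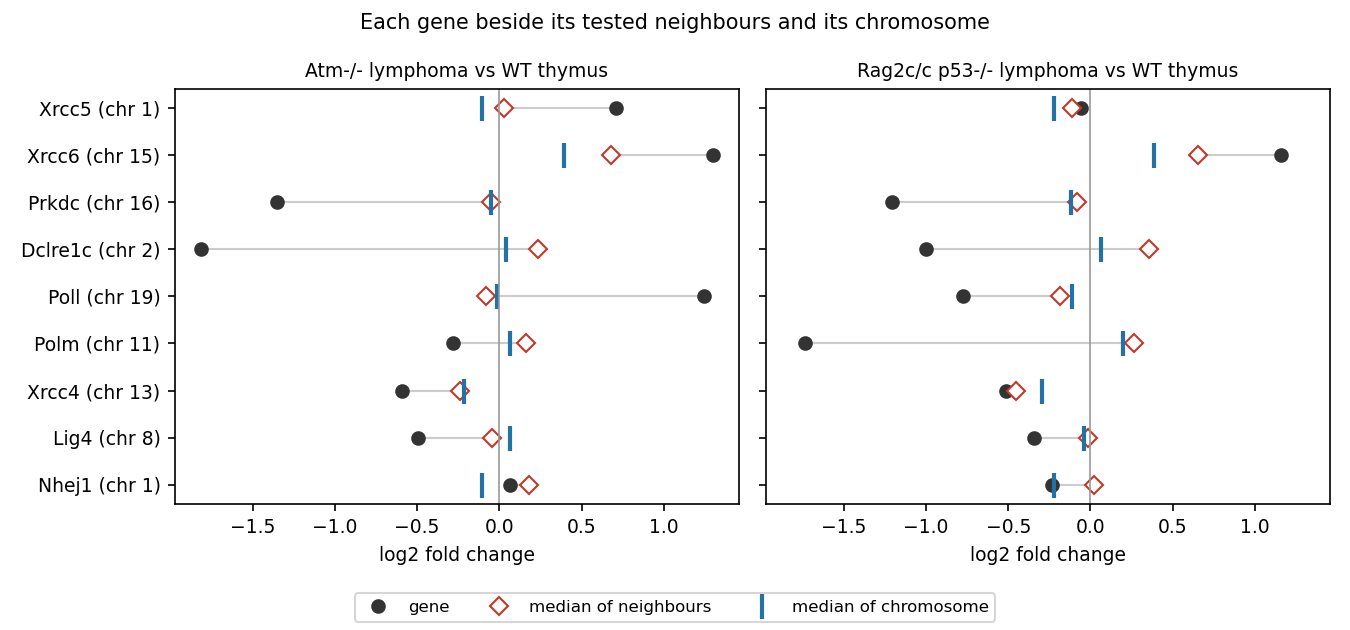
log2 fold change against WT of each gene (filled circle), the median of its tested neighbours on the chromosome (open diamond) and the median of all tested genes of the chromosome (bar), in Atm-/- lymphomas on the left and Rag2c/c p53-/- lymphomas on the right. For Xrcc6 all 3 marks lie above 0, whereas for Prkdc and Dclre1c only the gene lies far below 0.

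Of the accessory factors, which process blocked ends, add nucleotides or protect ends from resection, 18 of 19 genes listed were found and tested. In Atm-/- lymphomas 2 rose, 6 fell and 10 were not called (median -0.22), while 21.0% of all genes tested rose and 23.6% fell. In Rag2c/c p53-/- lymphomas 2 rose, 4 fell and 12 were not called (median -0.01), while 17.5% of all genes rose and 19.7% fell. Those called were 8 and 6 of 18, beside 44.6% and 37.3% of all genes, so the counts do not set this list apart. Mad2l2, a subunit of the shieldin complex that protects ends, had the highest log2 fold change in either, at 398, 390 and 383 in WT, 921 to 1508 in Atm-/- lymphomas and 1061 to 1905 in the Rag2c/c p53-/- group (log2 fold change 1.62, adjusted p = 7.4e-05, and 1.81, adjusted p = 5.6e-05). Shld1 of the same complex had the lowest, at 209, 172 and 180 in WT, 24 to 91 in Atm-/- lymphomas and 49 to 132 in the Rag2c/c p53-/- group (-1.95, adjusted p = 0.002, and -1.28, adjusted p = 0.0268). Between the lymphoma groups 1 of 18 passed the test, beside 11.6% of all genes. It was Aptx, which was lower in Atm-/- lymphomas by 0.64 (adjusted p = 0.00735), while Rnf8 at 0.32 and Mdc1 at -0.92 marked the ends of the range.

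The 10 genes of alternative end joining, which joins resected ends without Ku, were counted in the same way. In either lymphoma group 5 of 10 rose, none fell and 5 were not called, with medians of 0.46 in Atm-/- lymphomas and 0.48 in the Rag2c/c p53-/- group. Beside this, 21.0% of all genes rose and 23.6% fell in Atm-/- lymphomas, and 17.5% and 19.7% in the Rag2c/c p53-/- group. Of the classical genes, 2 of 9 and 1 of 9 rose. The 5 alternative genes that rose were Parp1, Lig1, Xrcc1, Nbn and Fen1, of which Lig1, Parp1, Xrcc1 and Fen1 also serve replication or base excision repair. Lig1 was at 3507, 3872 and 3596 in WT, 4748 to 9675 in Atm-/- lymphomas and 5457 to 7375 in the Rag2c/c p53-/- group, and had the highest log2 fold change in Atm-/- lymphomas (1.05, adjusted p = 0.00088), where Rbbp8 had the lowest (-0.05, adjusted p = 0.888). Nbn had the highest in Rag2c/c p53-/- lymphomas (1.05, adjusted p = 0.00872) and Mre11a the lowest (-0.02, adjusted p = 0.936). Markers of dividing cells moved the same way in part, as given above, and their part in these values was not tested. Between the lymphoma groups 0 of the 10 were called by limma or limma-voom, beside 11.6% of all genes in limma. Of the 10, 0 had an unadjusted p under 0.05, and the differences ran from -0.47 (Rbbp8) to 0.25 (Lig1).

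**Figure D5:**
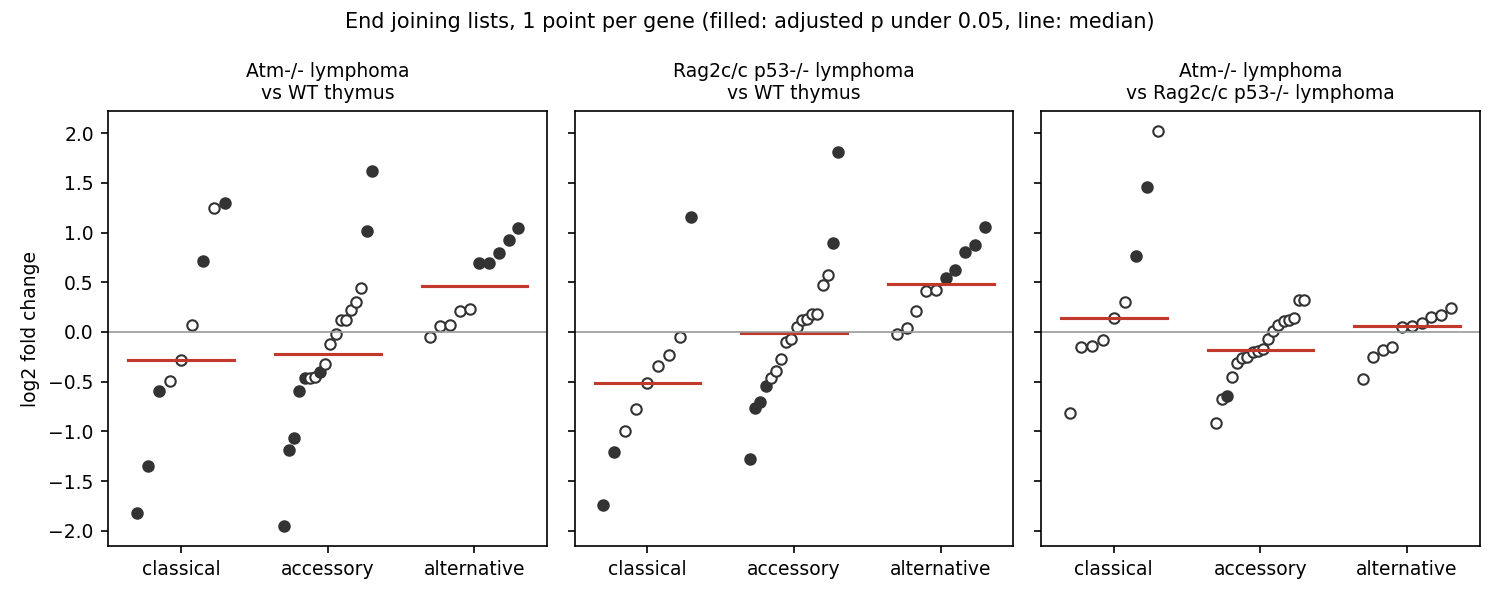
log2 fold change of each gene of 3 end joining lists in the 3 comparisons, 1 point per gene, filled where the adjusted p was under 0.05, with a line at the median of the list. The medians of the classical genes are -0.28, -0.52 and 0.14 and those of the alternative genes 0.46, 0.48 and 0.06.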

How the data were processed

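By the study's methods, polyadenylated RNA from single-cell suspensions was made into stranded libraries (TruSeq) and sequenced. Those methods describe WT thymuses and lymphomas of other genotypes, and were taken to hold for the lymphomas here. Per the study's methods and the submitters' processing notes, alignment to GRCm38 was by STAR 2.4.0g1, Picard took out duplicates, HTSeq-count assigned reads to Ensembl genes and the authors normalised these counts with DESeq2 1.6.3. The deposited values are a score, counts divided by a size factor and rounded to whole numbers, with column totals of 19788898 to 21591289. Whole reads could not be recovered, so the main test was not a count test, and limma-voom on estimated reads was run only as an alternative. Depth was estimated from the steps between low values. The deposited table also holds the authors' group means, dispersions, fold changes, p-values and adjusted p-values of each lymphoma group against WT, which were not used.

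Here, the log2(value + 1) of all 13 libraries was fitted by limma 3.58.1 (R 4.3.3) in 3 groups, with trend and robust moderation, for 15872 genes with at least 10 in at least 3 libraries. Fold changes are on that scale, which understates those of low genes, and adjusted p-values are Benjamini-Hochberg over all genes tested (threshold 0.05). Intervals are 95% confidence intervals. The fit was tested on simulated data. Lengths and strands came from GENCODE vM21 (GRCm38), and promoters from RefSeq (GRCm38.p6). All 9 members are named with all values, and of each list the genes with the highest and lowest log2 fold change. Dpcd, Fbxw4, Btrc and the overlapping genes, the accessory and alternative genes counted as called and the cell type markers printed were named after their values were seen. Members and lists were chosen with earlier results of these data known. Replicate numbers of the lymphomas follow accession order. Spread between libraries is that between single mice, whose libraries also differ in depth. Alternatives covered the scaling, filter, pseudocount, moderation, voom on estimated reads, fold threshold, depth, groups in the fit and leaving out each library. Protein sequences were not analysed here.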

Additional observations from a re-analysis of the deposited data

Results flagged for a closer look

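In groups of 5, a library was marked where its gap to the nearest other exceeded Dixon's 95% critical value, which chance does in about 1 of 20 groups. Of the 18 groups looked at (9 genes in 2 lymphoma groups), 3 were marked. Xrcc6 was at 21818 in Atm-/- lymphoma replicate 4, against 15921 to 17410 in the other 4. Prkdc was at 719 in Atm-/- lymphoma replicate 5, against 602 to 632, and at 463 in Rag2c/c p53-/- lymphoma replicate 1, against 741 to 858. Each of these stayed on the same side of WT as the rest of its group. The low value of Poll in Rag2c/c p53-/- lymphoma replicate 1, at 8, did not pass this rule, because the other 4 spread from 106 to 310.

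The change from WT differed between the genotypes for 2 genes by the test of the difference itself, in limma with adjustment over all genes. For Xrcc5 it differed by 0.77 on the log2 scale (adjusted p = 0.0101), with each Atm-/- lymphoma above each Rag2c/c p53-/- lymphoma. For Polm it differed by 1.46 (adjusted p = 0.0262), with 4 of 5 Atm-/- lymphomas above the highest Rag2c/c p53-/- lymphoma, at 335. The Atm-/- values of Polm ran from 298 to 1583, on both sides of WT, those above WT being from the shallowest libraries of that group. Its call was lost under 8 of 22 alternatives, while that of Xrcc5 was kept in all.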

How the results depend on the processing

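Under 22 alternatives, 559 of 594 values of single members kept their direction and side of the threshold, 14 gained and 13 lost the call, and 8 changed sign, none of the last being called. Xrcc6 and Prkdc against WT in both genotypes, Xrcc5 and Dclre1c in Atm-/- lymphomas, Polm in the Rag2c/c p53-/- group and Xrcc5 between genotypes kept their calls in all 22. With a 2-fold threshold, 4687 genes were called in Atm-/- lymphomas and 3750 in the Rag2c/c p53-/- group against WT, and 3 members in Atm-/- lymphomas and 1 between genotypes. With a mean of at least 100, 1153 genes were called between genotypes. With only the groups compared in the fit, 1055 genes and 1 member were called between genotypes and 7 members in Atm-/- lymphomas against WT, Lig4 and Poll among them. Between genotypes, 1 member was called without libraries under 10 M reads. Leaving out each library in turn gave 4619 to 7810 genes (Atm-/- against WT), 3491 to 6506 (Rag2c/c p53-/- against WT, the lowest 2 without WT replicate 3 or 1) and 1 to 2 members between genotypes. The signs changed for Nhej1 in Atm-/- lymphomas with voom (-0.052) and without libraries under 10 M reads (-0.13). Leaving out libraries, the log2 fold change ranged from -0.11 to 0.20 for Nhej1 and from -0.58 to 0.021 for Polm in Atm-/- lymphomas. It ranged from -0.17 to 0.071 for Xrcc5 and from -1.20 to 0.083 for Poll in Rag2c/c p53-/- lymphomas, and from -0.14 to 0.0043 for Xrcc4 and from -0.31 to 0.034 for Lig4 between genotypes. The cause was not tested. No paired analysis was run, because each library came from a different mouse and the labels give no pairs. The fewest estimated reads in a library were 8.47 for Poll and 32.1 for Nhej1, which limits the precision of those values.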

Other observations

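Over the 13 libraries, the gene whose log2 values were most like those of a member was looked for among 10762 genes with a mean of at least 100. Libraries share group, depth and strain, so these values of Pearson's r are descriptions. For Xrcc6 it was Pla2g6 (r = 0.971), for Polm Irf2 (0.970), for Poll Ei24 (0.961), for Dclre1c Zgpat (0.958) and for Prkdc Ankrd13d (0.952). For Xrcc5 it was 2010012O05Rik (0.939) and for Xrcc4 Smox (0.928). Lig4 and Nhej1 had no gene above 0.9, the nearest being Rock1 (0.866) and Acad8 (0.845). Among the 36 pairs of members, r was highest for Poll and Xrcc5 (0.799) and lowest for Prkdc and Xrcc6 (-0.933), a pair that changed in opposite directions against WT in both lymphoma groups. Xrcc5 and Xrcc6, whose products form 1 ring, had an r of 0.418.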
